A study of Mus musculus with 212 samples.

Results

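Glycolytic enzymes and genes of the hypoxia response were followed in mouse skin fibroblasts with and without the clock gene Bmal1 (symbol Arntl in the files). The members were taken by symbol from the deposited table of 47631 genes, and all 35 listed genes were found. They are 17 glycolytic enzymes including the lactate dehydrogenases, 5 carriers and metabolic switches, 4 genes that make or control the hypoxia-inducible factors (HIF), and 9 HIF target genes. Poly(A) RNA was sequenced in 212 libraries, of which 210 were used. The cells carried a Bmal1-/- or a WT genotype, both on C57BL/6, and no age is given in the labels. Each genotype has courses named AM and PM with 17 time points every 3 h, and courses at 27C, 32C and 37C with 24 time points every 2 h. The time labels (CT, in hours) begin at CT0, and the labels do not explain AM and PM. All cultures, WT included, were confluent, were exposed to 100 nM dexamethasone for 15 min and were then kept in HEPES-buffered medium until a first harvest 48 h later. Each time point had 3 wells per genotype and has 1 library. Neither pooling of the wells nor the number of cell preparations is given in the sources used here, so a genotype may stand for 1 preparation. Both libraries labelled CT14 27C were left out, which leaves 23 time points at 27C.

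Glycolysis splits glucose into pyruvate in the cytosol, and lactate dehydrogenase turns pyruvate into lactate. With oxygen present, the prolyl hydroxylases (EGLN proteins) mark the HIF proteins for destruction. When oxygen is scarce, HIF pairs with ARNT and binds DNA at short sites with the core ACGTG or GCGTG, and many glycolytic genes, the glucose carrier Slc2a1 and the angiogenic factor Vegfa are known targets. BMAL1 belongs to the same protein family (bHLH-PAS) as the HIF subunits and binds with CLOCK to the related E-box CACGTG. HIF1A is controlled mainly as a protein, so its transcript does not report its activity.

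Estimated depth ran from 9.95 M reads in the library labelled WT CT36 AM to 32.1 M reads, with course medians of 18.45 M (WT AM) to 27.93 M (WT 32C). Arntl itself averaged 5.80 to 8.01 FPKM in the Bmal1-/- courses and 4.97 to 7.36 FPKM in the WT courses. FPKM (fragments scaled for transcript length and for the reads of the library) of a whole gene does not show which exons are missing, so this level does not check the genotype. All 10 fibroblast markers were at 1 FPKM or more in every group of libraries, with sums of 7913 to 23440 FPKM. Of other cell types, 4 of 5 adipocyte markers reached 1 FPKM in Bmal1-/- AM and PM and 3 of 5 in WT, with sums of 137 to 258 FPKM in Bmal1-/- and 45.04 to 125 FPKM in WT. Lpl led them with up to 174 FPKM, and the defining marker Adipoq reached at most 1.59 FPKM. The melanocyte, macrophage and endothelial lists were lower in Bmal1-/- than in WT, without overlap in AM and PM. The keratinocyte and muscle lists overlapped between the genotypes there. The 3 melanocyte markers summed to 0 to 0.439 FPKM in Bmal1-/- and 2.08 to 13.5 FPKM in WT, and in the temperature courses to 0 to 0.736 and 2.5 to 20.9 FPKM, also without overlap. In WT, Mlana made up nearly all of this and was the 1 of 3 that reached 1 FPKM, against 0 of 3 in Bmal1-/-, while Tyr stayed under 0.1 FPKM. The 5 macrophage markers, of which 1 reached 1 FPKM in Bmal1-/- and 2 in WT, summed to 1.58 to 3.74 FPKM in Bmal1-/- and 4.09 to 7.16 FPKM in WT. The 4 endothelial markers, of which 1 and 2 reached it, summed to 1.15 to 2.87 FPKM in Bmal1-/- and 3.32 to 6.28 FPKM in WT. Cdh5 stayed under 0.1 FPKM, and Kdr led in WT with a course mean of 3.64 FPKM in PM. Pecam1 went the other way, averaging under 0.1 FPKM in WT AM and PM but not in Bmal1-/- AM and PM. With the 3 temperatures pooled, the genotypes overlapped for the macrophage and the endothelial lists. Within 37C the macrophage sums did not overlap, with 1.17 to 3.07 FPKM in Bmal1-/- and 6.43 to 10.03 FPKM in WT. At 27C they overlapped. The 5 adipocyte markers also summed to 34.3 to 60.4 FPKM at 27C against 146 to 228 FPKM at 37C in Bmal1-/-, and to 21.8 to 39.2 against 65.6 to 112 FPKM in WT. The 5 macrophage markers summed to 17.99 to 41.5 FPKM at 27C against 1.17 to 3.07 FPKM at 37C in Bmal1-/-, and to 24.9 to 41.4 against 6.43 to 10.03 FPKM in WT. At 27C most of this was Cd68, and Ptprc and Adgre1 stayed under 0.1 FPKM. The 4 keratinocyte markers summed to 2.87 to 5.69 FPKM at 27C against 0.959 to 1.84 FPKM at 37C in Bmal1-/-. In WT they summed to 1.03 to 1.98 against 0.782 to 1.77 FPKM. Cdh1 led in Bmal1-/- at 27C with 3.77 FPKM. In WT, 3 of the 4 averaged under 0.1 FPKM at both temperatures, Cdh1 among them, which leaves Krt10. Krt5 stayed under 0.1 FPKM. These markers move with the comparisons of genotype and temperature, and their part in the results was not tested. In bulk cultures, fewer cells of a type and less RNA per cell cannot be told apart.

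The glycolytic enzymes covered a wide range of levels, and Aldoc had the largest ratio of highest to lowest course mean of all members. The hexokinase Hk1 had course means of 29.3 (WT 32C) to 46.97 FPKM (Bmal1-/- AM), and the inducible hexokinase Hk2 2.60 (Bmal1-/- PM) to 12.3 FPKM (Bmal1-/- 27C). Glucose phosphate isomerase, Gpi1, had 86.3 (WT PM) to 181 FPKM (WT 27C). Of the phosphofructokinases, Pfkl had 6.98 (Bmal1-/- 27C) to 44.2 FPKM (Bmal1-/- AM), Pfkm 25.2 (WT AM) to 35.04 FPKM (Bmal1-/- PM) and Pfkp 5.19 (WT 32C) to 15.9 FPKM (Bmal1-/- 27C). The liver-type Pfkl thus varied most of these. The aldolase Aldoa had 352 (WT PM) to 629 FPKM (Bmal1-/- AM), and Aldoc, the aldolase best known from brain, 0.387 (Bmal1-/- PM) to 37.8 FPKM (WT 27C). Triose phosphate isomerase, Tpi1, had 131 (WT 32C) to 197 FPKM (Bmal1-/- 37C). Lower in the pathway, the enolase Eno1 had 71.3 (WT 37C) to 149.98 FPKM (WT 27C) and the neuronal enolase Eno2 12.1 (WT AM) to 35.3 FPKM (Bmal1-/- PM). Pyruvate kinase, Pkm, had 197 (WT 37C) to 336 FPKM (Bmal1-/- 27C). The lactate dehydrogenase subunits had 98.6 (WT PM) to 275 FPKM (Bmal1-/- AM) for Ldha and 31.5 (Bmal1-/- 37C) to 68.6 FPKM (WT 27C) for Ldhb. Each course mean is over 17, 23 or 24 libraries.

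Gapdh, Pgk1 and Pgam1, enzymes of successive steps, were read far below their neighbours in the pathway. Glyceraldehyde phosphate dehydrogenase, Gapdh, had 1.97 (WT 37C) to 4.82 FPKM (Bmal1-/- PM). Phosphoglycerate kinase, Pgk1, had 6.20 (Bmal1-/- PM) to 21.4 FPKM (WT 27C) and phosphoglycerate mutase, Pgam1, 9.02 (Bmal1-/- 27C) to 15.9 FPKM (Bmal1-/- AM). Their transcripts have near-identical copies, counted here as other annotated transcripts with at least 95% identity over at least 101 bases, the read length. Gapdh had 79 copies covering 87.96% of its transcript, and the 75 of them in the table summed to a mean of 17.3 FPKM. Pgk1 had 4 copies, and the 2 in the table are listed at 0. The pseudogene Pgam1-ps2 averaged 34.7 FPKM over all libraries, above Pgam1 itself at 12.8 FPKM. In all, 12 of the 35 members had a copy, among them 9 of the 17 glycolytic enzymes. The copy Tpi-rs11 averaged 252 FPKM beside 165 FPKM for Tpi1, Gm1840 164 FPKM beside 140 FPKM for Gpi1, and Gm6560 169 FPKM beside 268 FPKM for Pkm. How reads were divided between a gene and its copies was not tested, so the levels of these members are uncertain.

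Among the carriers and switches, the glucose carrier Slc2a1 had 23.4 (WT 27C) to 43.6 FPKM (Bmal1-/- 27C), and the lactate exporter Slc16a3 2.47 (WT 27C) to 19.6 FPKM (Bmal1-/- AM). The enzymes that make the activator of phosphofructokinase had 7.65 (WT 27C) to 27.4 FPKM (Bmal1-/- 27C) for Pfkfb3 and 2.70 (WT 27C) to 7.25 FPKM (Bmal1-/- PM) for Pfkfb4. Pdk1, a kinase that switches off the mitochondrial pyruvate dehydrogenase, had 16.3 (WT 37C) to 71.6 FPKM (Bmal1-/- 27C). Among the HIF genes, Hif1a had 61.5 (Bmal1-/- 37C) to 127 FPKM (WT AM) and its relative Epas1, the gene of HIF2A, only 0.0714 (WT 27C) to 2.004 FPKM (Bmal1-/- AM). The prolyl hydroxylase Egln1 had 15.3 (WT 32C) to 23.9 FPKM (Bmal1-/- AM), and the inducible Egln3 0.449 (WT 27C) to 5.41 FPKM (Bmal1-/- AM).

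The HIF targets differed among themselves in where they were high. The mitophagy receptors had 8.05 (WT PM) to 20.7 FPKM (Bmal1-/- 27C) for Bnip3 and 13.5 (WT 37C) to 54.05 FPKM (Bmal1-/- 27C) for Bnip3l. Vegfa had 32.2 (WT 27C) to 106 FPKM (Bmal1-/- PM), and the stress response gene Ndrg1 18.998 (Bmal1-/- 37C) to 67.3 FPKM (WT 27C). Ankrd37, an ankyrin repeat gene, had 1.54 (WT 37C) to 9.74 FPKM (Bmal1-/- 32C). Ddit4, which encodes the mTORC1 inhibitor REDD1, had 11.9 (WT PM) to 80.6 FPKM (Bmal1-/- AM). The subunits of collagen prolyl 4-hydroxylase had 57.8 (WT 27C) to 170.1 FPKM (Bmal1-/- AM) for P4ha1 and 18.2 (WT 27C) to 93.3 FPKM (WT AM) for P4ha2. Adm, the gene of the vasodilator peptide adrenomedullin, had 11.2 (Bmal1-/- 37C) to 183 FPKM (WT 32C).

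**Figure D1:**
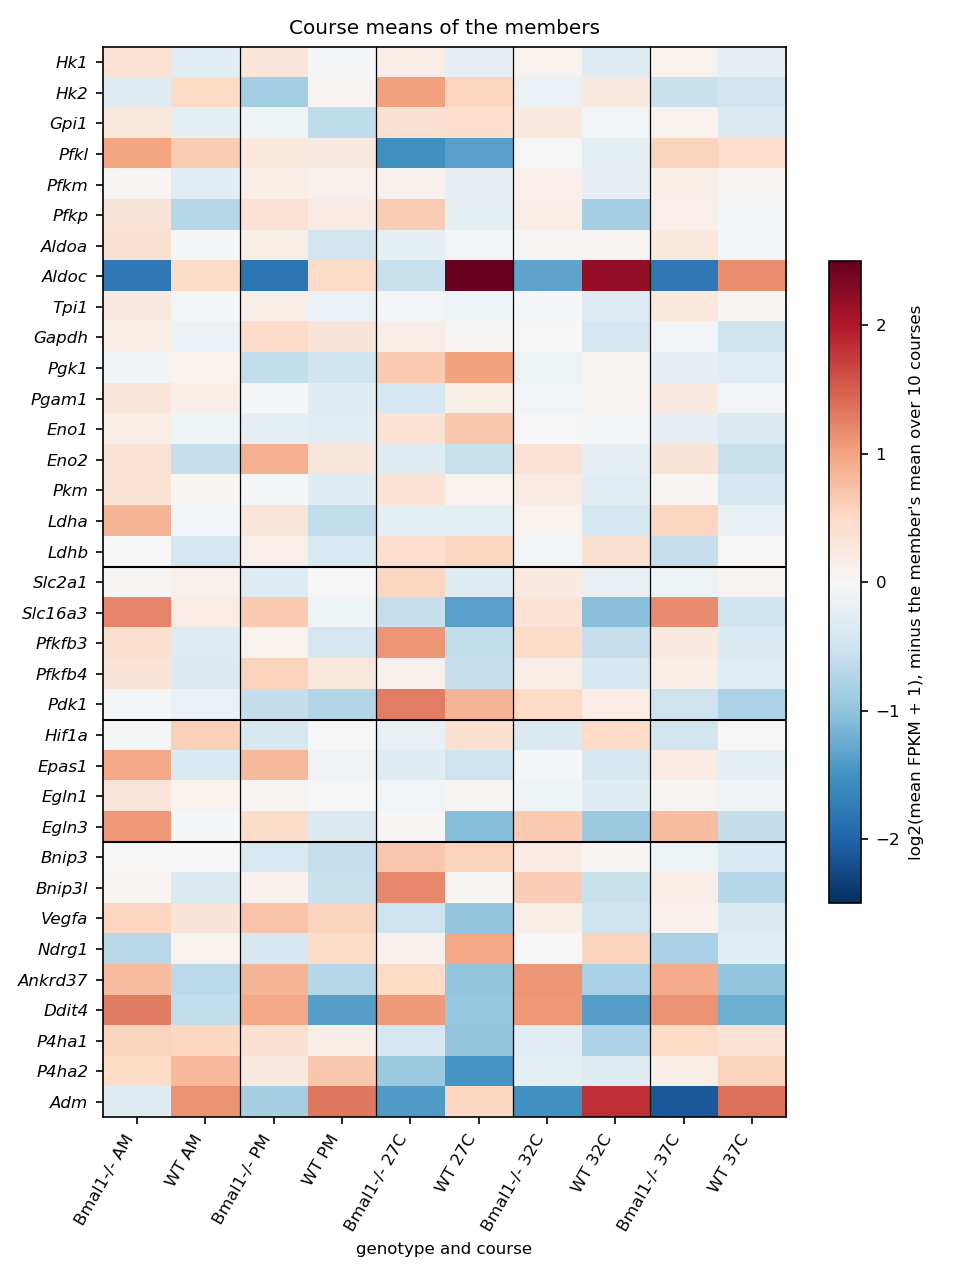
Each line of the map is 1 member and each column 1 time course, and the colour gives log2(course mean FPKM + 1) minus the mean of that member over the 10 courses. Aldoc and Adm are lower and Ddit4 and Ankrd37 higher in Bmal1-/- than in WT in each pair of courses, and Pfkl is lowest at 27C (6.98 FPKM in Bmal1-/- and 8.01 FPKM in WT).

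The first comparison asks how these genes differ in cells without Bmal1. Aldoc and Adm were lower, and Ddit4 and Ankrd37 higher, in Bmal1-/- than in WT, both in AM and PM and in the temperature courses. A genotype call needed an adjusted p under 0.05 in limma, at least a 2-fold difference on the log2(FPKM + 1) scale, and the same sign in each pair of courses. In AM and PM, 3 of 35 members were called higher in Bmal1-/- and 2 lower, against 7.01% and 7.53% of the 13307 genes tested. These shares of the members are near the background. The median difference over the members was 0.23 (log2), beside -0.0005 over all genes.

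Aldoc ranged over 0, 0.366 and 1.14 FPKM (lowest, median and highest of 34 libraries) in Bmal1-/- AM and PM, against 3.002, 4.93 and 14.1 FPKM in WT. The genotypes did not overlap, and the difference was -2.22 ± 0.09 (log2, SE; adjusted p = 2.17e-30). The ratio of course means, Bmal1-/- over WT, was 0.0755 in AM and 0.0660 in PM. The added 1 FPKM makes the log2 difference of so low a gene smaller than this ratio. Adm ranged over 19.1, 33.2 and 60.5 FPKM in Bmal1-/-, against 76.2, 117 and 199.8 FPKM in WT, again without overlap, and differed by -1.77 ± 0.04 (adjusted p = 4.53e-44).

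Ddit4 ranged over 56.6, 71.6 and 96.9 FPKM in Bmal1-/- AM and PM, against 8.39, 15.9 and 30.4 FPKM in WT. Every Bmal1-/- library held more Ddit4 than any WT library, and the difference was 2.15 ± 0.03 (adjusted p = 1.58e-57). Ankrd37 ranged over 5.13, 7.75 and 11.6 FPKM in Bmal1-/-, against 0.841, 2.04 and 3.84 FPKM in WT, without overlap, and differed by 1.54 ± 0.07 (adjusted p = 6.12e-28). The fifth called member was Epas1, at a low level. It averaged 2.004 ± 0.432 FPKM in Bmal1-/- AM against 0.183 ± 0.0585 FPKM in WT AM, and 1.69 ± 0.324 FPKM in Bmal1-/- PM against 0.442 ± 0.145 FPKM in WT PM (SD, n = 17 each). Its difference was 1.12 ± 0.04 (adjusted p = 7.10e-35).

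Members short of 2-fold on the log2(FPKM + 1) scale in AM and PM were Egln3 at 0.98, Ldha at 0.93, Slc16a3 at 0.90 and Hk2 at -0.85. As plain ratios of course means, some of these were larger. The ratio of Bmal1-/- over WT was 2.82 in AM and 2.31 in PM for Egln3, 2.14 and 1.81 for Slc16a3, and 0.516 and 0.455 for Hk2. Ldha averaged 275 ± 21.5 FPKM in Bmal1-/- AM against 144 ± 14.7 FPKM in WT AM, and 188 ± 8.92 FPKM in Bmal1-/- PM against 98.6 ± 8.13 FPKM in WT PM. Hif1a was at -0.52 ± 0.03, with 81.2 ± 5.59 FPKM in Bmal1-/- AM against 127 ± 12.8 FPKM in WT AM.

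**Figure D2:**
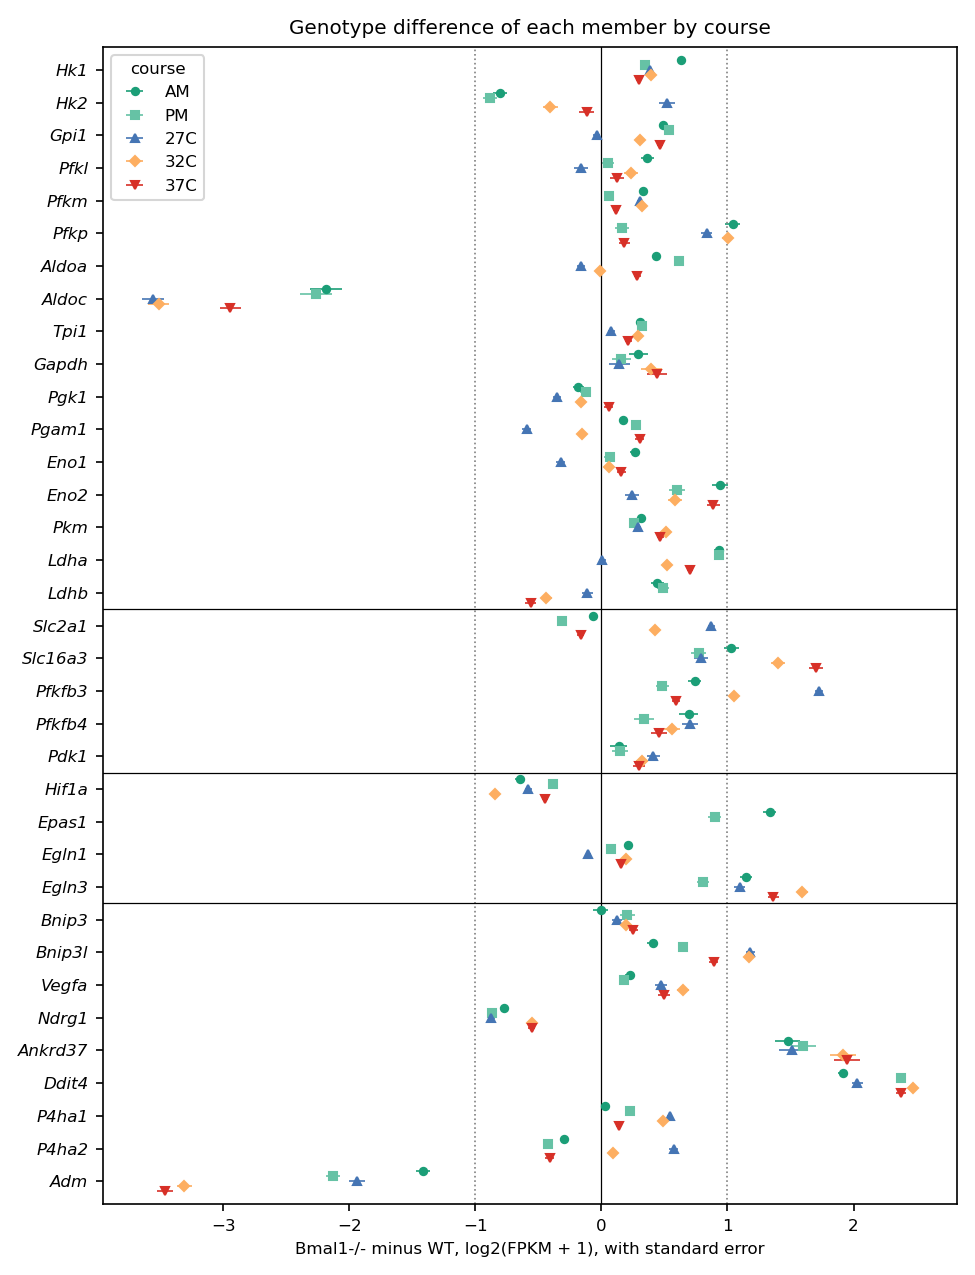
Points give the difference of Bmal1-/- minus WT in log2(FPKM + 1) for each member, 1 symbol per pair of courses, with bars for the standard error and dotted lines at 2-fold. Aldoc and Adm lie below -1 and Ddit4 and Ankrd37 above 1 in all 5 pairs, while Hk2 lies at -0.89 in PM and 0.52 at 27C.

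In the temperature courses 6 of the 34 members tested were called higher in Bmal1-/- and 2 lower, against 5.92% and 7.01% of 13031 genes. Epas1 was below the filter of 1 FPKM on the mean. The median difference over the members tested was 0.29, beside -0.02 over all genes. Aldoc ranged over 0.0695, 0.992 and 3.98 FPKM (71 libraries) in Bmal1-/-, against 4.83, 20.9 and 47.8 FPKM in WT, and differed by -3.34 ± 0.05 (adjusted p = 3.60e-96). The ratio of course means was 0.0620 at 27C, 0.0457 at 32C and 0.0423 at 37C. Adm ranged over 6.60, 14.8 and 31.7 FPKM in Bmal1-/-, against 46.1, 125 and 259.5 FPKM in WT, and differed by -2.90 ± 0.04 (adjusted p = 4.53e-107). By temperature the Adm difference was -1.94 at 27C, -3.31 at 32C and -3.46 at 37C. The genotypes did not overlap for Aldoc or Adm within any course.

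Ddit4 ranged over 54.8, 69.2 and 92.4 FPKM in the Bmal1-/- temperature courses, against 8.04, 13.1 and 23.98 FPKM in WT, without overlap, and differed by 2.29 ± 0.02 (adjusted p = 2.38e-113). Ankrd37 ranged over 3.16, 8.11 and 14.9 FPKM in Bmal1-/-, against 0.318, 1.49 and 4.95 FPKM in WT, and differed by 1.79 ± 0.06 (adjusted p = 1.57e-57). Its libraries overlapped at 27C only, where Bmal1-/- was still the higher one at all 23 shared time points. Also called higher were Egln3 (1.35 ± 0.03), Slc16a3 (1.30 ± 0.03), Pfkfb3 (1.12 ± 0.02) and Bnip3l (1.08 ± 0.02). Each was higher in Bmal1-/- at every shared time point of the 3 pairs of courses.

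Egln3 averaged 4.16 ± 0.463 FPKM in Bmal1-/- 37C against 1.01 ± 0.210 FPKM in WT 37C (SD, n = 24 each). Slc16a3 averaged 19.3 ± 3.13 FPKM in Bmal1-/- 37C against 5.28 ± 1.22 FPKM in WT 37C. Bnip3l averaged 25.8 ± 1.58 FPKM in Bmal1-/- 37C against 13.5 ± 1.03 FPKM in WT 37C, and its pseudogene copy Bnip3l-ps differed by 1.12 over the temperature courses. The uncalled members with the largest differences were Pfkp at 0.67, Ndrg1 at -0.66 and Hif1a at -0.62. Of the 17 glycolytic enzymes Aldoc was the 1 called in either series, and their median difference was 0.29 in AM and PM and 0.19 in the temperature courses.

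The promoters of the 4 members called in the same direction in both series are printed to show the core letters that HIF is known to bind. The BMAL1 E-box CACGTG stood in none of the 4 printed windows. The windows are RefSeq's, from 250 bases before to 50 bases after the annotated start (build GRCm38.p6), 5′ to 3′ on the gene's strand. Capitals mark ACGTG or GCGTG on either strand, which on the opposite strand read CACGT or CACGC. Aldoc lies at chr11:78322823-78323122 (+ strand, the first of 2 starts listed), Adm at chr7:110627407-110627706 (+ strand), Ankrd37 at chr8:45999801-46000100 (- strand) and Ddit4 at chr10:59951721-59952020 (- strand).
Aldoc: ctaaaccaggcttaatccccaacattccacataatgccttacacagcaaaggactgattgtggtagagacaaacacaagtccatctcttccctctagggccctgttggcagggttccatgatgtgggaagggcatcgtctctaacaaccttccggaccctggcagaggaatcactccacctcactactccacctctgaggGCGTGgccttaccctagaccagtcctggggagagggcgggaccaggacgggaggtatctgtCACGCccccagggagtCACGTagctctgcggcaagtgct
Adm: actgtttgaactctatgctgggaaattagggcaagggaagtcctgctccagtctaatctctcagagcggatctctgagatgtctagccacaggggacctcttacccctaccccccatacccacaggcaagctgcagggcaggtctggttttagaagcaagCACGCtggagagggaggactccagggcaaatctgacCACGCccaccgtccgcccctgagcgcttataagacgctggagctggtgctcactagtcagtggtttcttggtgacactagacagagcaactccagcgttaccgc
Ankrd37: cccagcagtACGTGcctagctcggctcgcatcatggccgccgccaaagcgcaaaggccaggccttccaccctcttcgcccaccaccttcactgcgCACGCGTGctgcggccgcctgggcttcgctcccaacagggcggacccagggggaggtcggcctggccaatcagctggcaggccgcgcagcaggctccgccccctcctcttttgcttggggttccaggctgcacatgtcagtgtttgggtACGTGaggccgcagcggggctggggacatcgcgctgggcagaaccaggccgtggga
Ddit4: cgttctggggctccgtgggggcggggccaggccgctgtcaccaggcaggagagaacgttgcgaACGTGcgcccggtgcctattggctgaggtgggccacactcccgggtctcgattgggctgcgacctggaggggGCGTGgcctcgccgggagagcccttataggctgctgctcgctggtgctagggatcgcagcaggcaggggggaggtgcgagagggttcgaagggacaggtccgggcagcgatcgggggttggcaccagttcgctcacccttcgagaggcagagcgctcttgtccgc
Aldoc held 3 such sites, Adm 2, Ankrd37 4 and Ddit4 2. RefSeq windows were found for 32 of the 35 members, the exceptions being Epas1, Bnip3l and Ndrg1. ACGTG or GCGTG stood in a window of 29 of these 32 members (90.6%) and of 46.7% of the 27025 genes in the table. ACGTG stood in 22 members (68.8%) against 21.8% of genes, and GCGTG in 22 members against 35.2% of genes. CACGTG, which contains ACGTG, stood in 5 members (15.6%), namely Pfkm, Ldha, Pfkfb3, Hif1a and Bnip3, against 8.09% of genes. Some genes have several windows: by window, 37 of the members' 46 (80.4%) held ACGTG or GCGTG against 43.8% of all 32851. The members' windows had a median of 62.2% G and C against 52.7% over all windows, and known HIF targets were listed as such. These matches describe letters only.

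**Figure D3:**
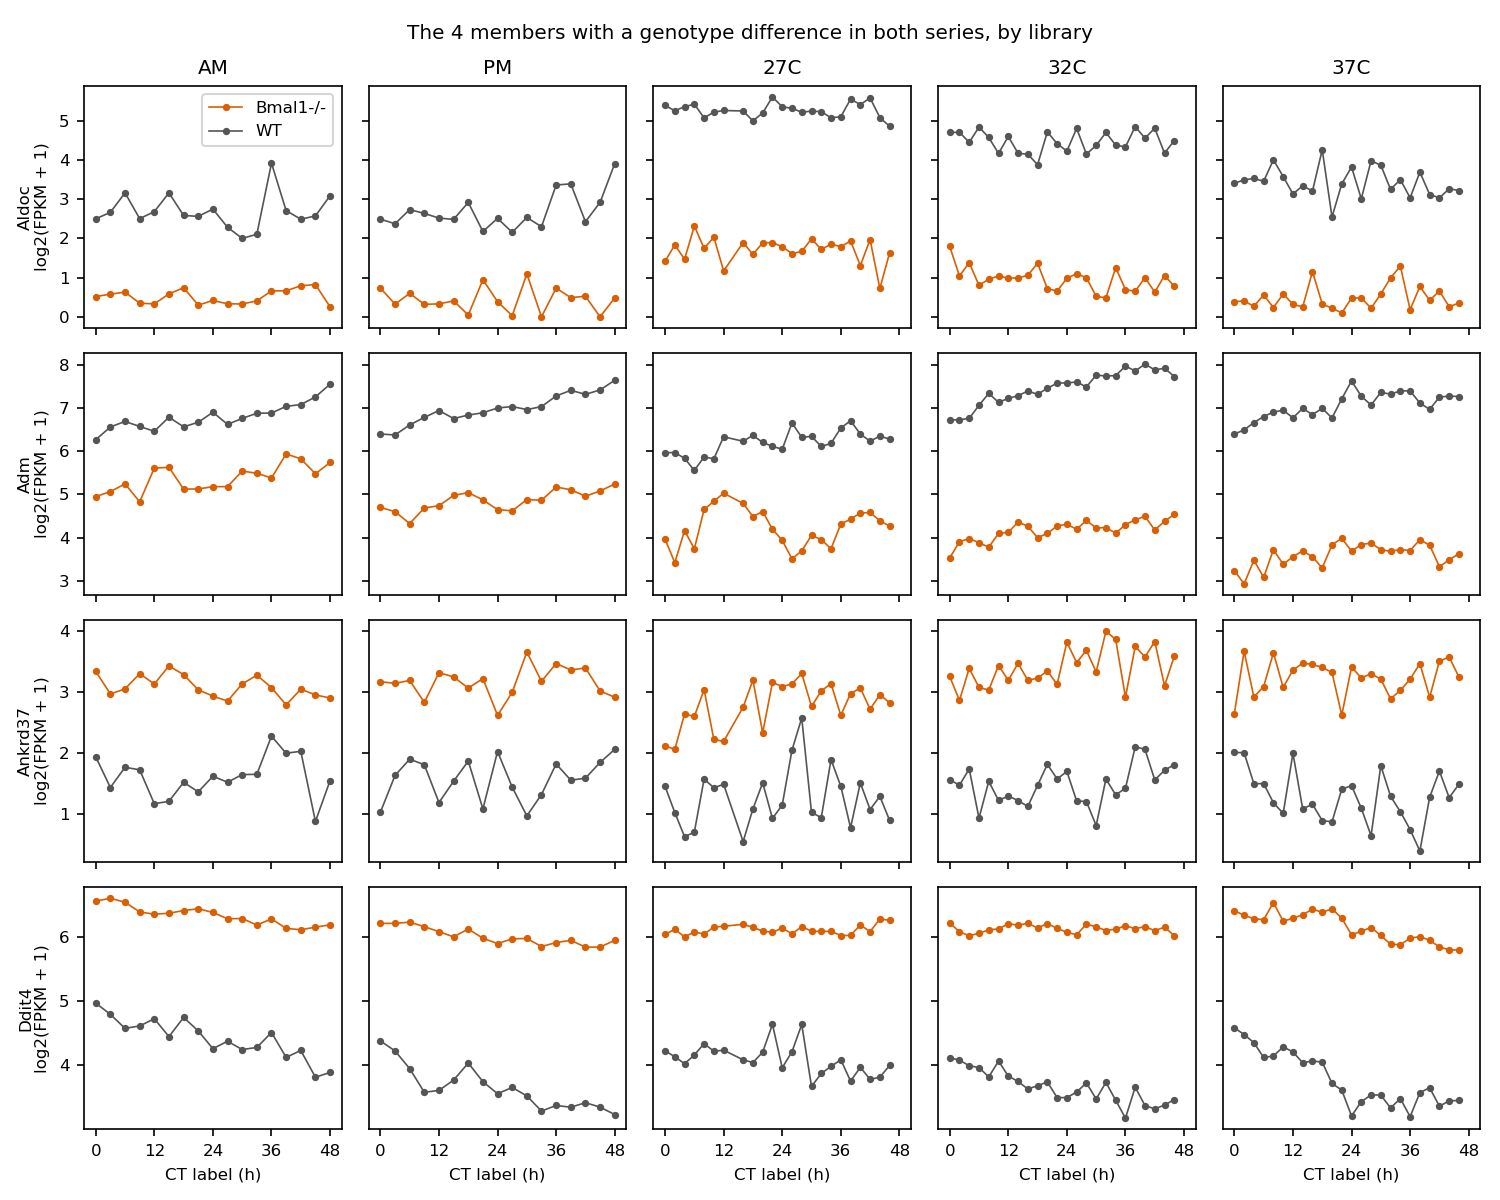
Each panel shows log2(FPKM + 1) of 1 gene (down the page) in 1 pair of courses (across) against the CT label in hours, 1 point per library, Bmal1-/- in orange and WT in grey. The genotypes differ in the same direction at every shared time point for all 4 genes, and Ddit4 declines in each WT course (in WT 37C, 9.94 FPKM at CT46 against 23.04 FPKM at CT0).

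Other genes of the pathways were read from lists of 30 glycolysis and 32 hypoxia genes. In AM and PM, 0 of the 22 glycolysis genes tested were called higher in Bmal1-/- and 3 lower. These were Pdk4 (-2.34 ± 0.06), another pyruvate dehydrogenase kinase, the opposing phosphatase Pdp1 (-1.89 ± 0.02) and the glucose carrier Slc2a3 (-1.19 ± 0.08). Of 27 hypoxia genes tested 3 were higher and 3 lower, among them the secreted glycoprotein Stc2 (-2.38 ± 0.02), the collagen crosslinking enzyme Loxl2 (1.88 ± 0.02) and Stc1 (1.37 ± 0.03), with 3 higher and 2 lower after median-of-ratios scaling. In the temperature courses 0 glycolysis genes were higher and 4 lower, namely Pdk4 (-2.48 ± 0.04), Pdp1 (-2.01 ± 0.02), Pgm1 (-1.28 ± 0.01) and Slc2a3 (-1.25 ± 0.04). There 4 hypoxia genes were higher and 2 lower, among them Loxl2 (2.45 ± 0.02) and Fam162a (1.24 ± 0.02).

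The next comparison asks how these genes differ at lower temperature. At 27C the pyruvate dehydrogenase kinase Pdk1 was higher and the phosphofructokinase Pfkl lower than at 37C in both genotypes. In Bmal1-/-, 4 of 34 members were called higher at 27C and 3 lower, against 7.64% and 4.04% of all genes. In WT, 5 were called higher and 3 lower, against 8.38% and 5.21%. The median of all genes was itself shifted, by 0.21 in Bmal1-/- and 0.21 in WT at 27C and by 0.13 and 0.13 at 32C. With libraries rescaled by median-of-ratios factors, 3 members were higher and 5 lower in each genotype. Rescaling moved the counts over all 13031 genes as well. In Bmal1-/- they were 570 higher and 792 lower, against 995 and 527 as reported. In WT they were 623 higher and 997 lower, against 1092 and 679 as reported. Each temperature is 1 course per genotype, so temperature and culture set cannot be told apart.

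Pfkl ranged over 4.54, 6.997 and 9.73 FPKM (lowest, median and highest) at 27C in Bmal1-/-, against 24.1, 32.2 and 45.2 FPKM at 37C. In WT, Pfkl ranged over 4.41, 7.72 and 12.5 FPKM at 27C, against 19.9, 29.3 and 42.9 FPKM at 37C. Temperatures did not overlap in either genotype, and the differences were -2.09 ± 0.05 in Bmal1-/- (adjusted p = 7.61e-68) and -1.80 ± 0.05 in WT (adjusted p = 3.96e-61). Pdk1 ranged over 53.96, 70.1 and 85.2 FPKM at 27C in Bmal1-/-, against 16.02, 19.8 and 26.3 FPKM at 37C. In WT, Pdk1 ranged over 46.5, 53.1 and 59.7 FPKM at 27C, against 10.7, 16.3 and 25.5 FPKM at 37C. Here too the temperatures did not overlap, and the differences were 1.78 ± 0.05 in Bmal1-/- (adjusted p = 2.30e-65) and 1.67 ± 0.05 in WT (adjusted p = 1.98e-62), or 1.54 and 1.43 after rescaling.

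P4ha2 was lower at 27C in both genotypes. It ranged over 21.4, 27.7 and 34.1 FPKM at 27C in Bmal1-/-, against 51.1, 57.8 and 65.6 FPKM at 37C, a difference of -1.06 ± 0.04. In WT, P4ha2 ranged over 12.96, 18.2 and 24.7 FPKM at 27C, against 58.1, 77.3 and 94.4 FPKM at 37C, a difference of -2.04 ± 0.04. Its partner P4ha1 was called lower in WT (-1.35 ± 0.02) and stood at -0.94 ± 0.02 in Bmal1-/-, where rescaling took it past 2-fold (-1.18). The lactate exporter Slc16a3 fell in Bmal1-/-, ranging over 3.68, 4.99 and 6.62 FPKM at 27C, against 13.5, 19.9 and 26.04 FPKM at 37C (-1.76 ± 0.05). In WT, Slc16a3 had 2.47 ± 0.650 FPKM at 27C against 5.28 ± 1.22 FPKM at 37C (-0.85 ± 0.05, and -1.04 after rescaling). Rescaling also took Ldha in Bmal1-/- (-1.001) and Adm in WT (-1.10) past 2-fold.

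Aldoc was higher at 27C in both genotypes, by 1.23 ± 0.09 in Bmal1-/- and 1.84 ± 0.09 in WT. In Bmal1-/- it averaged 2.44 FPKM in the first 24 h and 2.25 FPKM after at 27C, against 0.345 and 0.511 FPKM at 37C. The added 1 FPKM shrinks the log2 difference at such levels, so these differences do not rank the genotypes. In WT, Aldoc ranged over 27.99, 37.1 and 47.8 FPKM at 27C, against 4.83, 9.54 and 18.2 FPKM at 37C, without overlap. Hk2 rose in Bmal1-/-, ranging over 9.50, 12.6 and 14.8 FPKM at 27C, against 2.07, 3.29 and 4.75 FPKM at 37C (1.61 ± 0.06), and was at 0.97 in WT. Bnip3l was called higher in Bmal1-/- (1.03 ± 0.03), and Pgk1 (1.28 ± 0.03), Ndrg1 (1.22 ± 0.03) and Eno1 (1.06 ± 0.04) in WT. After rescaling, Bnip3l stood at 0.80, Ndrg1 at 0.98 and Eno1 at 0.82, all under 2-fold on this scale. The Eno1 copy Gm4735 differed by 0.96 in WT. The median over the 17 glycolytic enzymes was 0.22 in Bmal1-/- and 0.20 in WT, close to the shift of all genes. Of the other glycolysis genes 3 were higher and 1 lower in Bmal1-/-, and 1 higher and 3 lower in WT. They were led by Txnip, which restrains glucose uptake, at -2.56 ± 0.05 in Bmal1-/- and -2.94 ± 0.05 in WT, with Pdk3 at 1.49 ± 0.05 in Bmal1-/- and 1.29 ± 0.05 in WT. Of the hypoxia genes 2 were higher and 1 lower in Bmal1-/-, and 1 higher and 2 lower in WT, with the collagen lysyl hydroxylase Plod2 at -1.07 ± 0.04 in Bmal1-/- and -1.47 ± 0.04 in WT. After rescaling these counts were 0 higher and 2 lower in Bmal1-/-, and 1 higher and 4 lower in WT, and for the glycolysis genes 2 and 1 in Bmal1-/-, and 1 and 3 in WT.

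**Figure D4:**
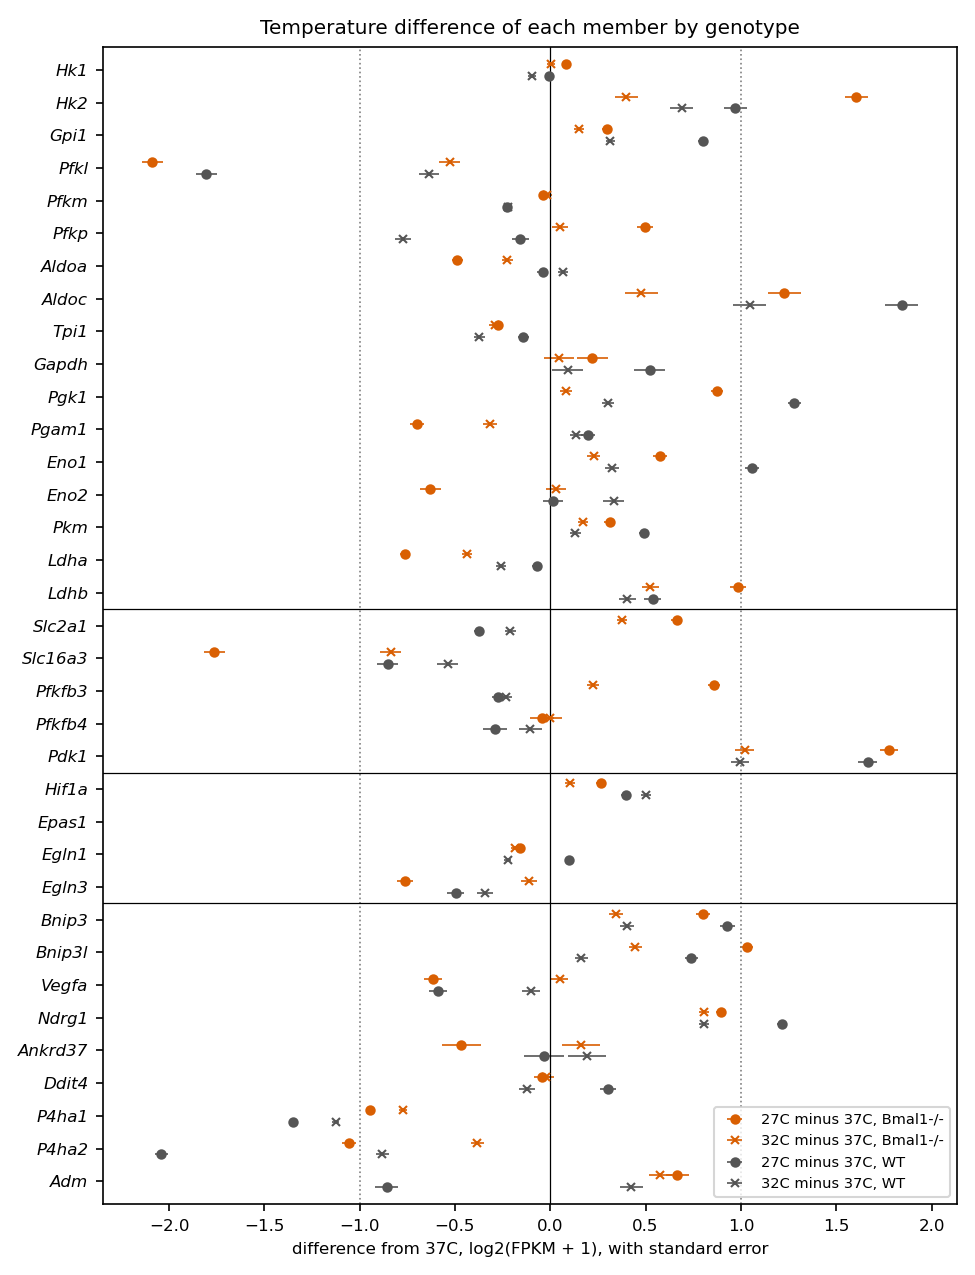
Points give the difference from 37C in log2(FPKM + 1) for each member at 27C (circles) and 32C (crosses), Bmal1-/- in orange and WT in grey, with bars for the standard error and dotted lines at 2-fold. At 27C, Pfkl, P4ha1 and P4ha2 lie below 0 and Pdk1, Aldoc and Hk2 above 0 in both genotypes, while Adm is at 0.67 in Bmal1-/- and -0.86 in WT.

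Fewer members were called at 32C. In Bmal1-/-, Pdk1 was called higher than at 37C (1.02 ± 0.05) and 0 members lower by limma, against 1.77% and 0.944% of all genes. There 10 members were lower at an unadjusted p under 0.05, and the same 10 at an adjusted p under 0.05. Only the 2-fold limit left them uncalled, and no share of all genes is given without that limit. In WT, Aldoc was called higher (1.05 ± 0.09) and P4ha1 lower (-1.13 ± 0.02), against 1.93% and 1.37%. After rescaling, Pdk1 in Bmal1-/- stood at 0.88 and Aldoc in WT at 0.92, neither called, and P4ha2 in WT joined the lower ones at -1.02. In the 32C libraries the gene Gm26377 held 18.8% to 34.2% of the summed FPKM, against 0.359% to 2.51% in the other libraries, and its part in these differences was not tested. Pdk1 averaged 71.6 FPKM at 27C, 41.5 FPKM at 32C and 20.02 FPKM at 37C in Bmal1-/-, and 52.97, 33.04 and 16.3 FPKM in WT. The 32C means of Pdk1, Ndrg1, Slc16a3 and P4ha1 lay between those at 27C and 37C in both genotypes.

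The response to 27C itself was compared between the genotypes as an interaction. Adm, Pfkfb3 and Slc2a1 were called with a more positive response in Bmal1-/- than in WT, 3 of 34 members against 2.74% of all genes. In the other direction 0 were called by limma, against 1.67%. In that direction 20 members were negative at an unadjusted p under 0.05, and the same 20 at an adjusted p under 0.05. Only the 2-fold limit left them uncalled, and again no share of all genes is given without that limit. Adm averaged 18.6 ± 5.87 FPKM at 27C against 11.2 ± 2.15 FPKM at 37C in Bmal1-/-, and 73.6 ± 14.1 FPKM at 27C against 135 ± 28.05 FPKM at 37C in WT, an interaction of 1.52 ± 0.09 (adjusted p = 4.63e-34). Pfkfb3 averaged 27.4 ± 2.37 FPKM at 27C against 14.7 ± 1.17 FPKM at 37C in Bmal1-/-, and 7.65 ± 1.16 FPKM at 27C against 9.47 ± 1.56 FPKM at 37C in WT (1.13 ± 0.05, adjusted p = 4.02e-48). Slc2a1 averaged 43.6 ± 4.93 FPKM at 27C against 27.1 ± 2.56 FPKM at 37C in Bmal1-/-, and 23.4 ± 2.77 FPKM at 27C against 30.6 ± 4.36 FPKM at 37C in WT (1.03 ± 0.04, adjusted p = 3.63e-51). For all 3 genes the 27C mean lay above the 37C mean in Bmal1-/- and below it in WT. With the CT14 libraries kept, Adm stayed called at 1.64, while Pfkfb3 at 0.97 and Slc2a1 at 0.96 were under 2-fold on the log2(FPKM + 1) scale. Of the other pathway genes, Pdk4 (1.43 ± 0.11), Bhlhe40 (-1.28 ± 0.05), Ero1l (-1.05 ± 0.06) and Arrdc4 (-1.04 ± 0.05) were called.

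Between PM and AM the differences of the members were under 2-fold on the log2(FPKM + 1) scale. As plain ratios of course means, PM over AM passed 2-fold in WT for Pfkp at 2.07, without overlap of libraries, and for the low Epas1 at 2.42, with overlap. By limma, 0 of 35 members were called higher in PM and 0 lower in Bmal1-/-, against 0.519% and 0.646% of all genes, and likewise 0 and 0 in WT, against 1.61% and 0.774%. At an unadjusted p under 0.05, 7 were higher and 24 lower in Bmal1-/-, and 10 higher and 21 lower in WT. The counts at an adjusted p under 0.05 were the same, so only the 2-fold limit left these members uncalled. The percentages above are of calls. No share of all genes is given without the 2-fold limit, so these counts have no background here. The median over the members was -0.25 in Bmal1-/- and -0.13 in WT, beside 0.08 and 0.08 over all genes. Pfkl was at -0.71 in Bmal1-/-, with 26.6 ± 2.26 FPKM in PM against 44.2 ± 5.01 FPKM in AM. Pfkp was at 0.93 in WT, with 11.7 ± 1.83 FPKM in PM against 5.67 ± 0.998 FPKM in AM. Eno2 was at 0.89 and Ddit4 at -0.78 in WT.

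Many members drifted along the courses. A trend was called at an adjusted p under 0.05 with the same sign in each course, with no limit on size, and is given in log2 per 24 h. In AM and PM, 3 members rose and 5 fell in Bmal1-/-, against 6.94% and 6.35% of all genes, and 5 rose and 6 fell in WT, against 11.1% and 11.8%. Adm rose in both, by 0.28 ± 0.05 in Bmal1-/- (adjusted p = 2.10e-05) and 0.48 ± 0.05 in WT (adjusted p = 7.25e-12). It read 52.5 FPKM at CT48 against 29.9 FPKM at CT0 in Bmal1-/- AM, and 188 FPKM at CT48 against 76.2 FPKM at CT0 in WT AM. Ddit4 fell in both, with slopes of -0.20 ± 0.03 in Bmal1-/- (adjusted p = 4.18e-06) and -0.48 ± 0.03 in WT (adjusted p = 4.46e-18). It read 61.1 FPKM at CT48 against 73.6 FPKM at CT0 in Bmal1-/- PM, and 8.39 FPKM at CT48 against 19.9 FPKM at CT0 in WT PM. Vegfa also fell in both, with -0.11 ± 0.03 in Bmal1-/- and -0.25 ± 0.03 in WT. In Bmal1-/-, Epas1 (0.18) and Ldhb (0.17) rose, and Slc16a3 (-0.24), Eno2 (-0.21) and Pgk1 (-0.11) fell. In WT, P4ha2 (0.16), Pfkp (0.14), Eno1 (0.10) and Bnip3l (0.10) rose, and Slc2a1 (-0.21), Hk2 (-0.16), Pfkfb3 (-0.13) and Pfkm (-0.07) fell. Without the library labelled WT CT36 AM, Pfkp stood at 0.11 and was not called. Whether the genotypes differ in any trend was not tested.

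In the temperature courses each glycolytic enzyme with a called trend fell. In Bmal1-/-, 5 members rose and 4 fell, against 9.43% and 11.2% of all genes, and in WT 2 rose and 12 fell, against 11.9% and 13.7%. All 4 that fell in Bmal1-/- were glycolytic enzymes, Pgk1 (-0.17 ± 0.02), Eno1 (-0.15 ± 0.03), Hk2 (-0.13 ± 0.05) and Tpi1 (-0.08 ± 0.02). In WT, 8 of the 17 glycolytic enzymes fell and 0 rose, led by Pkm (-0.31 ± 0.02), Pfkl (-0.29 ± 0.04), Eno2 (-0.28 ± 0.04) and Pgk1 (-0.27 ± 0.02), with Eno1, Tpi1, Ldha and Pfkm between -0.19 and -0.12. Pkm read 225 FPKM at CT46 against 390 FPKM at CT0 in WT 27C, 179 FPKM at CT46 against 253 FPKM at CT0 in WT 32C and 169 FPKM at CT46 against 241 FPKM at CT0 in WT 37C. Of the other members in WT, Ddit4 (-0.41 ± 0.03), Pfkfb3 (-0.22 ± 0.02), Slc16a3 (-0.21 ± 0.04) and Hif1a (-0.12 ± 0.02) fell, and Adm (0.44 ± 0.05) and Egln1 (0.08 ± 0.01) rose. In Bmal1-/-, Ankrd37 (0.24 ± 0.08), Egln3 (0.14 ± 0.03), Egln1 (0.12 ± 0.01), P4ha1 (0.09 ± 0.01) and Pfkfb3 (0.08 ± 0.02) rose. Pfkfb3 thus had a called trend of opposite sign in the genotypes, a difference that was not tested. Of the other glycolysis genes, 5 of 22 rose and 1 fell in Bmal1-/-, and 5 rose and 7 fell in WT. Txnip rose in both (0.29 ± 0.04 in Bmal1-/- and 0.24 ± 0.04 in WT).

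The last comparison asks whether members cycled with a period of 24 h, tested on the cosine and sine terms of each course. In AM, 4 members were called in Bmal1-/- and 7 in WT, against 3.4% and 3.85% of all genes. In PM, 0 were called in Bmal1-/- by limma (6 at an unadjusted p under 0.05) and 4 in WT, against 3.02% and 5.61%. At 27C, 3 were called in Bmal1-/- and 0 in WT (6 at an unadjusted p under 0.05), against 9.85% and 2.15%. At 32C, limma called 0 in Bmal1-/- and 0 in WT (3 and 1 at an unadjusted p under 0.05), against 2.06% and 0.253%. At 37C, 7 were called in Bmal1-/- and 3 in WT, against 8.46% and 4.92%. Each percentage is of calls, and no share of all genes is given at the unadjusted limit.

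Among the called rhythms the one with the largest amplitude, taken in log2 between mid-level and peak, was that of Adm in Bmal1-/- cells at 27C. Adm read 9.70 FPKM at CT2, 31.7 FPKM at CT12, 10.4 FPKM at CT26 and 22.96 FPKM at CT42, so it went up in each of the 2 days. Its amplitude was 0.54 ± 0.06 with a peak at CT15.2 (adjusted p = 1.47e-08). In WT 27C the amplitude of Adm was 0.09 (adjusted p = 0.811), and the difference between genotypes was not tested. P4ha2 was called in the same Bmal1-/- course with an amplitude of 0.22 ± 0.04 and a peak at CT16.1 (adjusted p = 0.000149), and Hif1a with 0.11 ± 0.03 and a peak at CT2.89 (adjusted p = 0.0187). With the CT14 libraries kept, Adm stayed called at 0.70, while P4ha2 at 0.14 and Hif1a at 0.03 were not called. Without the linear time term Adm stood at 0.47, still called, and P4ha2 at 0.13, not called.

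**Figure D5:**
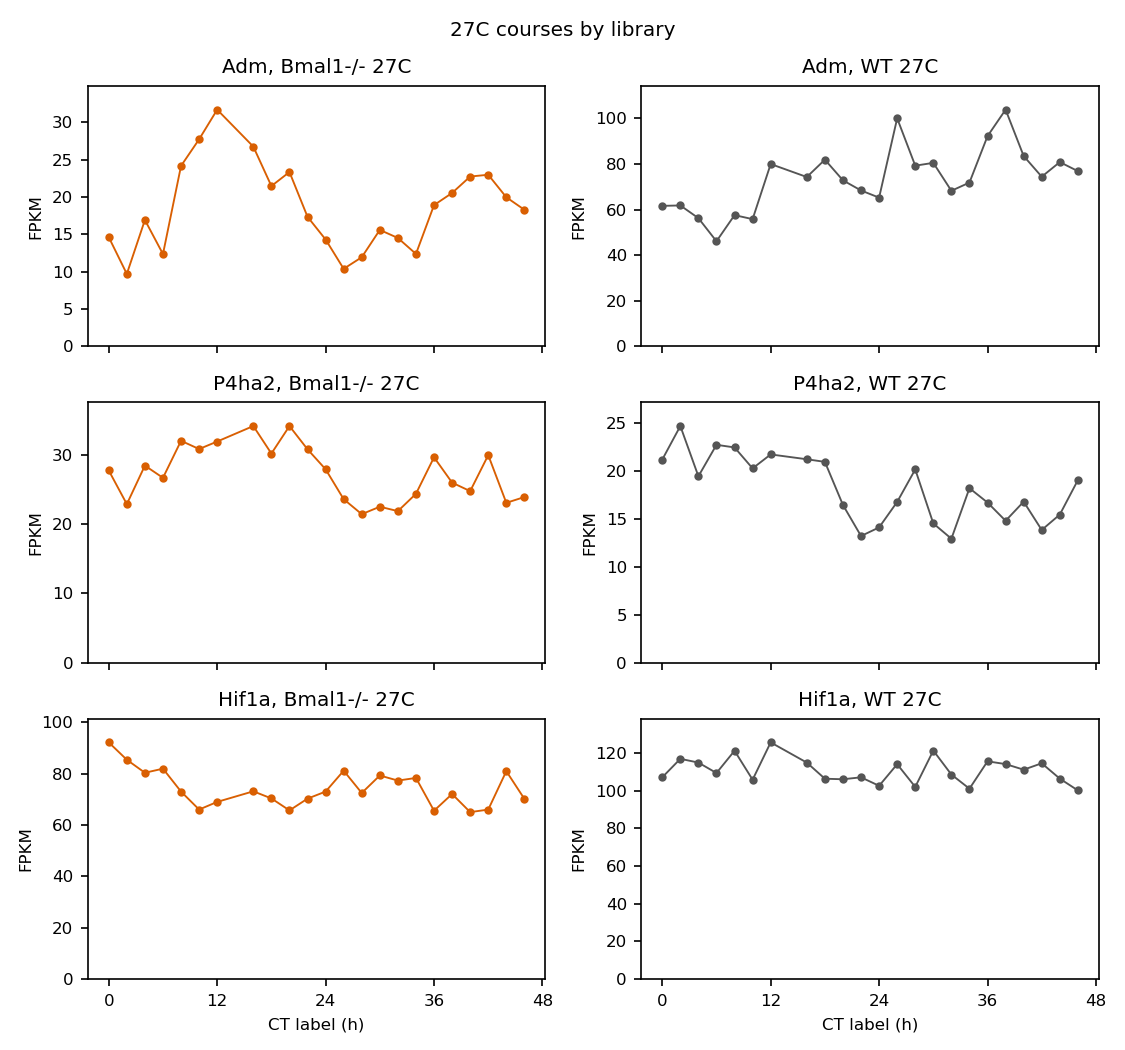
FPKM of Adm, P4ha2 and Hif1a in each library at 27C is plotted against the CT label in hours, Bmal1-/- on the left and WT on the right, each axis starting at 0 with its own upper limit. Adm in Bmal1-/- has crests of 31.7 FPKM at CT12 and 22.96 FPKM at CT42 around a trough of 10.4 FPKM at CT26.

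Vegfa was called in AM in both genotypes, with an amplitude of 0.17 at CT5.90 in Bmal1-/- and 0.17 at CT5.17 in WT, and in Bmal1-/- 37C with 0.23 at CT5.08. Gapdh was also called in AM in both, with 0.37 at CT4.81 in Bmal1-/- and 0.36 at CT7.27 in WT, at a low level and with many copies. The other members called in Bmal1-/- AM were Gpi1 (0.14 at CT16.2) and Tpi1 (0.15 at CT18.4). In WT AM they were Pfkl (0.24 at CT0.601), Eno2 (0.24 at CT1.95), Eno1 (0.19 at CT23.4), P4ha2 (0.13 at CT1.19) and Aldoa (0.11 at CT23.01), so these 5 peaked around CT0. In WT PM, Ddit4 (0.17 at CT21.6), Hk1 (0.16 at CT4.65), Gpi1 (0.13 at CT5.37) and Pkm (0.11 at CT4.56) were called. In Bmal1-/- 37C, Tpi1 (0.13 at CT19.4), Aldoa (0.11 at CT19.2), Ldha (0.10 at CT19.1), P4ha1 (0.09 at CT19.6), Gpi1 (0.09 at CT20.9) and Egln1 (0.08 at CT17.1) peaked within a few hours of each other. The libraries of this course from CT16 to CT22 had 17600 to 17982 genes above 0, against 18543 or more in its other libraries. Those at CT20 and CT22 also had its highest summed FPKM. The part of these libraries in the shared peak was not tested. In WT 37C, Gpi1 (0.12 at CT2.19), Ndrg1 (0.12 at CT2.27) and Pfkm (0.09 at CT4.06) were called. Without the library labelled WT CT36 AM, Aldoa (0.10) and Eno2 (0.21) were not called in WT AM.

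Rhythms that run opposite by label in AM and PM were tested as the difference of their cosine and sine terms. Gpi1 was the 1 member called in Bmal1-/- (0.10, adjusted p = 0.0481), against 0.368% of all genes. In WT, 4 members were called against 2.97%, namely Eno2 (0.18), Vegfa (0.12), Ddit4 (0.10) and Gpi1 (0.09). Without the library labelled WT CT36 AM, Eno2 (0.17) and Ddit4 (0.08) were not called. For a difference of this rhythm between genotypes 0 members were called by limma, against 0.383% of all genes. At an unadjusted p under 0.05 there were 4 members, with no share of all genes given at that limit. Without the linear time term 0 members were called in Bmal1-/- and 0 in WT.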

How the data were processed

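RNA of mouse skin fibroblasts was measured by stranded poly(A) RNA-seq with single-end reads of 101 bases, per the labels' protocols. The values are FPKM per gene as deposited by the authors in 1 table. Their processing notes name TopHat, TopHat2 2.1.0, Cuffdiff and GRCm38, per the submitters' processing notes, while no settings or annotation are given in the labels used here. FPKM holds no read counts. Depth was estimated from the steps of low values, 94.6% of which lay within 0.15 of whole reads over 1350 genes. Reads shared with pseudogenes may be divided in ways that change a level, and a gene holding many of a library's reads can lower the others. A share of the summed FPKM, as given for Gm26377, is not a share of reads.

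log2(FPKM + 1) was fitted with limma 3.58.1 (R 4.3.3, eBayes with an intensity trend), in 1 fit of 68 AM and PM libraries (13307 genes averaging 1 FPKM or more) and 1 of 142 temperature libraries (13031 genes). Each course had its own level, its own slope over time and its own 24 h wave (cosine and sine), and p-values were adjusted by Benjamini-Hochberg over all genes tested. They measure the spread between libraries around a course's curve, not between cell preparations. Courses are the groups and time points stand for replicates. The AM and PM fit was also run on simulated data with independent noise per library. Such data cannot show how the fits behave when libraries vary together or cell preparations differ. Copies were found with blastn 2.17.0, and tables and figures were made with Python 3.11.15. Levels are given for every member. In each comparison the text names up to 8 called members per group of roles, with full ranges for the 4 largest changes at most, up to 4 uncalled ones, and up to 4 other pathway genes of largest change. A hypoxia list gene that this rule names is counted with its list but not reported here. Alternatives were a pseudocount of 0.1, no filter, median-of-ratios scaling, other time terms, the time label as a block, leaving out the shallowest library and keeping both CT14 27C libraries, whose values were otherwise left out. The members and lists were chosen with earlier results of these data known.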

Additional observations from a re-analysis of the deposited data

Results flagged for a closer look

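The response to 27C differed between the genotypes for 3 members, by the interaction test in limma. Adm had an interaction of 1.52 (log2, Bmal1-/- minus WT of the 27C minus 37C difference). Pfkfb3 had 1.13 and Slc2a1 had 1.03. In each, the 27C level was above the 37C level in Bmal1-/- and below it in WT.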

How the results depend on the processing

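The limits are these. FPKM tables give no counts, each course is 1 set of cultures, depth of 9.95 to 32.1 M reads limits low genes such as Epas1 and Aldoc in Bmal1-/-, and copies make several enzyme levels uncertain. No called level difference or trend reversed its sign under any alternative run, and rhythm amplitudes have no sign to reverse. Calls of single members were lost in several runs. Without the linear time term 23 were lost and 10 kept, with no filter 17 lost and 92 kept, and with the CT14 27C libraries 13 lost and 52 kept. The genotype counts were as reported under every alternative run except a pseudocount of 0.1, which gave 4 higher and 3 lower in AM and PM. Counts of members that moved are given with the alternative. Under a pseudocount of 0.1, 1 was higher in PM in WT, 5 lower at 27C in WT, 2 higher at 32C in Bmal1-/- and 2 in WT, and 1 was rhythmic in WT 27C. With no filter, trends in AM and PM were 3 lower in Bmal1-/- and 3 higher in WT, and rhythmic members were 2 in Bmal1-/- AM, 4 in WT AM, 2 in WT PM, and 0 and 0 for the opposed rhythm in Bmal1-/- and WT. With median-of-ratios scaling, 5 were lower at 27C in Bmal1-/-, 3 higher and 5 lower in WT, 0 higher at 32C in Bmal1-/-, 0 higher and 2 lower in WT, with 2 rhythmic in WT PM and 0 opposed in Bmal1-/-. Without the linear term, rhythmic members were 1 in Bmal1-/- AM, 4 in WT AM, 0 in WT PM, 0 and 0 opposed in Bmal1-/- and WT, 2 in WT 27C, 1 in Bmal1-/- 32C, 2 in Bmal1-/- 37C and 5 in WT 37C. Without cosine and sine, 7 members fell in the Bmal1-/- temperature courses. With the CT14 27C libraries, 1 member kept the interaction, and 2 were rhythmic in WT 27C, 3 in Bmal1-/- 37C and 1 in WT 37C. The cause of these shifts was not tested.

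Over all genes, these counts moved by more than 1.5 times (alternative against reported). Pseudocount of 0.1: PM over AM 186 against 69 higher in Bmal1-/- and 412 against 214 in WT, 27C 825 against 527 lower in Bmal1-/-, 32C 427 against 230 higher and 217 against 123 lower in Bmal1-/-, 430 against 251 higher and 293 against 178 lower in WT, interaction 365 against 218 lower. Scaling: 27C 570 against 995 higher and 792 against 527 lower in Bmal1-/-, and 623 against 1092 higher in WT. Rhythms with no filter: 278 against 453 in Bmal1-/- AM, 22 against 51 for the genotype difference, 822 against 280 in WT 27C, 427 against 268 in Bmal1-/- 32C and 72 against 33 in WT 32C. Rhythms with no linear term: 250 against 453 in Bmal1-/- AM, 314 against 747 in WT PM, 0 against 49 and 176 against 395 opposed in Bmal1-/- and WT, 20 against 51 for the genotype difference, 444 against 280 in WT 27C, 120 against 33 in WT 32C and 484 against 1102 in Bmal1-/- 37C. Rhythms with CT14 27C: 425 against 280 in WT 27C, 171 against 268 in Bmal1-/- 32C, 15 against 33 in WT 32C, 590 against 1102 in Bmal1-/- 37C and 162 against 641 in WT 37C. Without the library labelled WT CT36 AM, 340 against 512 were rhythmic in WT AM.

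With the time label as a replicate block, which pairs libraries only by their time label, all 18 counts of members were as reported within 1.5 times and none of 34 gene values lost its call. The interaction of Adm was 1.498 with the block.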

Other observations

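The WT 27C library at CT28 held the highest value of its course for 8 of the 35 members, namely Gapdh, Pgam1, Eno2, Slc2a1, Slc16a3, Pdk1, Egln3, Ankrd37. Ankrd37 read 4.95 FPKM there against a course median of 1.22 FPKM. This library was singled out after its values were seen, and several other libraries hold as many highest values, among them WT 37C at CT0 with 9 members.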
